A study of Mus musculus with 6 samples.

Results

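The genes described here encode the enzymes that make, use and recycle S-adenosylmethionine (SAM), the methyl donor of PRMT5, and that turn it into polyamines. Members were the rows of the deposited gene table whose symbol was 1 of 10 listed names: Mat1a, Mat2a and Mat2b for SAM supply, Gnmt and Ahcy for SAM use and its by-product, Odc1, Amd1, Srm and Sms for polyamine synthesis, and Mtap for salvage. All 10 were found among 47643 genes, and all 10 passed the filter on low counts that left 17012 genes for testing. The list was written with earlier results of these data known, but no measured value enters the rule.

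RNA came from MYC-driven liver tumors of the strain FVB/N, with the transgenes LAP-tTA and tetO-MYC. In this system a liver-directed promoter drives the tetracycline transactivator, so MYC is off under doxycycline and on without it. All mice in both groups carried both transgenes, drank doxycycline at 100 mg/L up to an age of 4 weeks, and then had MYC on for 8 weeks. The vehicle group (3 libraries) then received vehicle and the GSK3326595 group (3 libraries) received GSK3326595, a PRMT5 inhibitor, at 50 mg/kg/day, each for 2 weeks. The labels do not say whether the libraries of a group are different animals, and the p-values therefore reflect only the variation among the libraries at hand, which may be technical. In bulk tumor RNA, fewer cells of a type and less RNA per cell cannot be told apart.

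As background, methionine adenosyltransferases join methionine to ATP to give SAM. MAT1A is the catalytic form of mature hepatocytes, and MAT2A, with its regulatory partner MAT2B, is the form of most other tissues and of dividing cells. Methyltransferases convert SAM to S-adenosylhomocysteine, which the hydrolase AHCY removes, and GNMT disposes of excess SAM by methylating glycine. AMD1 decarboxylates SAM, and the spermidine and spermine synthases SRM and SMS move its aminopropyl group onto putrescine, the product of ODC1. Each such transfer releases methylthioadenosine (MTA), which MTAP cleaves for return to methionine. MTA competes with SAM at PRMT5, and ODC1 is a well-known MYC target.

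Mat2a was searched for sites of a known control by SAM, and no such search was made for the control elements of other members. The methyltransferase METTL16 is known to bind hairpins in the 3′ untranslated region of this messenger RNA and to link its splicing and stability to the SAM level. The known METTL16 target letters were searched on the transcript strand only, as TACAGAGAA and TACAGAAAA. The 3′ untranslated region of the transcript Mat2a-201 (GENCODE M21, GRCm38, the assembly also called mm10) is 1494 bases long and held 6 such sites, 5 of TACAGAGAA and 1 of TACAGAAAA. They are given as DNA letters, 5′ to 3′ on the minus strand of chromosome 6, with the 9 searched letters in capitals and 10 flanking bases on each side.
Mat2a site 1, chr6:72434235-72434263: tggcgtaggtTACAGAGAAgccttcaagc
Mat2a site 2, chr6:72433451-72433479: ccttgtgataTACAGAGAAgtcacagggc
Mat2a site 3, chr6:72433272-72433300: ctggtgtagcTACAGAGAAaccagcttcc
Mat2a site 4, chr6:72433157-72433185: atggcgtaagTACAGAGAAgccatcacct
Mat2a site 5, chr6:72433046-72433074: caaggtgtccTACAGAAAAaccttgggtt
Mat2a site 6, chr6:72432938-72432966: gctggtgtggTACAGAGAAgccagcttgt

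Among 7342 genes with a 3′ untranslated region at least as long, 302 (4.11%) held 1 or more of these letters in a stretch of the same length. Mat2a was the only 1 of them with 6, and no other gene had more than 2. Because Mat2a is a known METTL16 target and the known target letters were searched, this rank is a description and not independent support. A match is a run of letters and not a measured binding site.

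Promoters were searched for CACGTG, the E-box that MYC with MAX is known to bind, because these tumors were driven by MYC. The motif reads the same on both strands. RefSeq windows from 250 bases before to 50 bases after a start site (GRCm38.p6) were matched for 8 of the 10 members, all but Srm and Mat1a. Of these 9 windows, 1 held the motif. Of all 32851 windows, 7.15% held it. Motifs outside the windows, as in introns further downstream, were not searched. The match was in the more upstream of both Sms windows (minus strand), 196 bases before that start, and is shown with CACGTG in capitals.
Sms promoter, chrX:157492238-157492537: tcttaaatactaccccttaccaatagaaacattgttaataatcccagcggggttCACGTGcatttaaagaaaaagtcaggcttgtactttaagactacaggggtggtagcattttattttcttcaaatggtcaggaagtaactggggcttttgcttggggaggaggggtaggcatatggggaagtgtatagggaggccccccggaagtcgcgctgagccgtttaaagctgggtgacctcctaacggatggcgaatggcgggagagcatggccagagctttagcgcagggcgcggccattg

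The libraries held 25814339 to 33621083 expected counts, and the members between 842 and 53386 expected counts per library, so counting error was small against the spread between libraries. GSK3326595 replicate 2 stood apart, at 103.1 on the first principal component (38.1% of the variance) against -50.2 to 9.37 for the other 5 libraries. Levels are CPM, expected counts scaled to library size with TMM factors. The hepatocyte gene Alb (albumin) was at 3157 to 11944 CPM, so the labelled liver origin was met in every library. Afp, a fetal liver protein that liver tumors often express, spanned 294 to 13207 CPM. It was at 5706 to 6659 CPM in vehicle and at 13207, 294 and 3837 CPM in GSK3326595 replicates 1, 2 and 3. Prmt5, the drug's target, had 69.9, 48.9 and 84.9 CPM in vehicle and 51.3, 96.0 and 129.9 CPM in GSK3326595, groups that overlapped (log2 difference 0.44 ± 0.37 SE, edgeR adjusted p = 0.753). That difference was 0.14 without treated replicate 3 and 0.73 without treated replicate 1 (unadjusted p = 0.0439, edgeR adjusted p = 0.468).

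No member passed the test of GSK3326595 against vehicle. Values were higher on average in GSK3326595 for Mat1a, Odc1, Amd1, Srm, Sms and Mtap, and lower for Mat2a, Mat2b, Gnmt and Ahcy, and the groups overlapped in all 10. By the quasi-likelihood test of edgeR, 0 of 10 members had an adjusted p under 0.05, and 0% of all 17012 genes did. At an unadjusted p under 0.05 the count was 0 of 10 members, against 9.26% of all genes (5.45% higher and 3.81% lower). DESeq2 called 0 of 10 members, against 1.69% of the genes it gave an adjusted p, and limma-voom called 0. Groups did not overlap in 14.4% of all genes. The members' median log2 difference was 0.16, beside 0.03 over all genes tested, and 6 of 10 were positive, beside 53.1% of all genes.

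The libraries that set the members' extremes were mostly those treated with GSK3326595. Replicate 2 of that group was the highest of 6 for 5 members (Mat1a, Mat2a, Gnmt, Ahcy and Mtap), and replicate 3 for the 4 polyamine genes. Replicate 1 was the lowest for 5 members (Mat2a, Mat2b, Ahcy, Amd1 and Srm). Prmt5 and Mettl16, outside the members, were also highest in replicate 3. The share of all genes with these extremes was not counted, so the counts are no result about these genes. The SD of log2 CPM was larger in GSK3326595 than in vehicle for 9 of 10 members, Mat2b being the exception. The same held for 75.4% of all genes tested, so a wider spread in treated than in vehicle libraries was common. The size of the spread differed: the median SD in GSK3326595 was 0.43 over all genes tested. The members had 0.11 (Mat2b) to 1.65 (Gnmt) there. Among 5711 genes with a mean of at least 30 CPM, the median ratio of highest to lowest library was 1.71, and 9 members were at or above it.

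**Figure D1:**
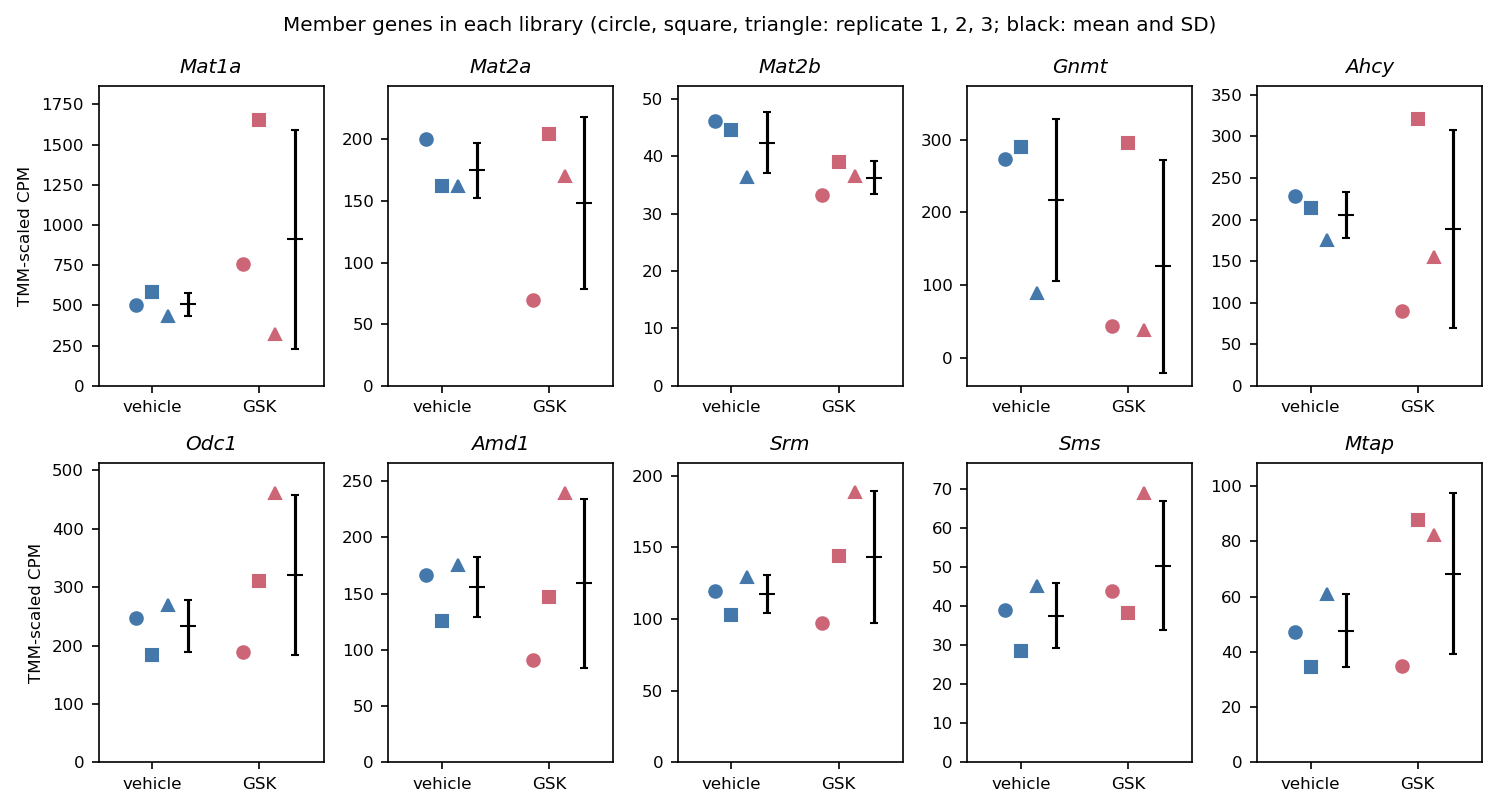
TMM-scaled CPM of the 10 members in each library, with vehicle in blue, GSK3326595 in red, replicates 1, 2 and 3 as circle, square and triangle, and the mean and SD of each group (n = 3) in black. The groups overlap in every panel, and the red points spread further than the blue ones in all but Mat2b.

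Among the SAM synthetases, Mat1a (ENSMUSG00000037798.6; chromosome 14, 41105035 to 41124412, plus strand) had 505, 581 and 437 CPM in vehicle replicates 1 to 3 and 758, 1655 and 323 CPM in GSK3326595. Both the highest and the lowest library were treated, and the vehicle values lay between them. Vehicle averaged 508 ± 71.9 CPM and the treated group 912 ± 680 CPM (SD over 3 libraries in each). The estimated log2 difference was 0.84 ± 0.54 (SE; 95% interval -0.45 to 2.14; edgeR adjusted p = 0.677). The difference was 0.13 without GSK3326595 replicate 2, and 1.26 without replicate 3 of that group (unadjusted p = 0.0136, edgeR adjusted p = 0.321).

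Mat2a (ENSMUSG00000053907.10; chromosome 6, 72432799 to 72439558, minus strand), which carries the 6 METTL16-type sites, had 201, 162 and 162 CPM in vehicle. In GSK3326595 it had 69.9, 204 and 170 CPM. Replicate 1 of the treated group was lower than the other 5 libraries, which lay within 162 to 204 CPM. The log2 difference was -0.24 ± 0.38 (SE; 95% interval -1.15 to 0.67; edgeR adjusted p = 0.904), and it was 0.10 without that library. Mettl16 itself had 51.6, 41.5 and 51.9 CPM in vehicle and 48.6, 81.5 and 103 CPM in GSK3326595. Its groups overlapped through treated replicate 1 (0.69 ± 0.29 SE, unadjusted p = 0.050, edgeR adjusted p = 0.539).

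Mat2b (ENSMUSG00000042032.13; chromosome 11, 40679314 to 40695203, minus strand) varied least of the 10 members, with a highest library 1.38 times its lowest. It had 46.1, 44.6 and 36.3 CPM in vehicle and 33.3, 39.0 and 36.5 CPM in GSK3326595. Vehicle replicate 3 lay among the treated libraries. GSK3326595 minus vehicle gave a log2 difference of -0.22 ± 0.17 (SE), and its 95% interval of -0.63 to 0.18 was the narrowest of the members (edgeR adjusted p = 0.730).

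The ratio of the hepatocyte form to the form of other tissues does not depend on library scaling and was taken within each library. Per kilobase of annotated exon, Mat1a exceeded Mat2a 3.26-, 4.65- and 3.49-fold in vehicle and 14.0-, 10.5- and 2.45-fold in GSK3326595. Treated replicates 1 and 2 lay above all vehicle libraries and treated replicate 3 below them. In replicate 1 the high ratio came with the lowest Mat2a of the 6 libraries, and in replicate 2 with the highest Mat1a. The log2 ratio was 1.91 ± 0.27 in vehicle and 2.83 ± 1.35 in GSK3326595 (SD, n = 3 each), a difference of 0.92 (exact permutation p = 0.4, two-sided; the smallest that 3 against 3 allows is 0.1). Without treated replicate 1 the difference was 0.43, and without treated replicate 2 it was 0.64 (exact permutation p = 0.8 for each). Without treated replicate 3 it was 1.69, with an exact permutation p of 0.1, the smallest that 3 against 2 allows. That library was the only treated one below the vehicle ratios, so this last p follows from which library was left out. With the longest coding transcript as the length, the ratios were 2.46, 3.51 and 2.63 in vehicle and 10.6, 7.93 and 1.85 in GSK3326595, in the same order.

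**Figure D2:**
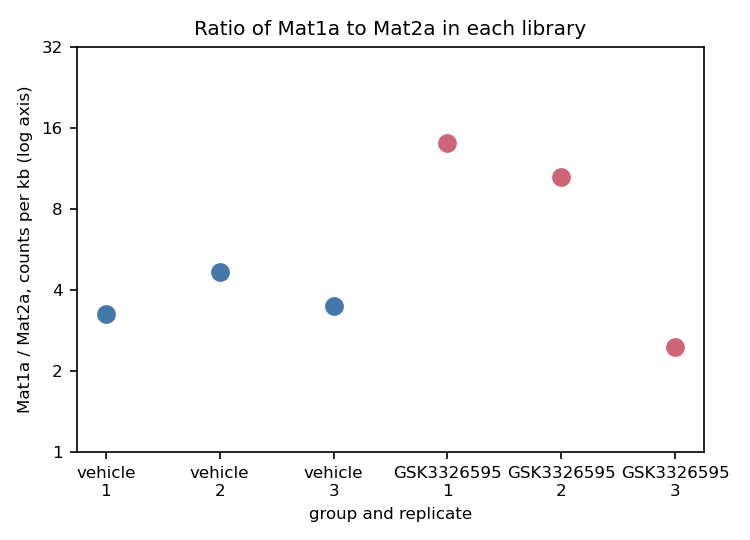
Ratio of Mat1a to Mat2a in each library, from expected counts per kilobase of annotated exon on a log axis, with vehicle in blue and GSK3326595 in red. The vehicle libraries sit between 3.26 and 4.65, with treated replicates 1 and 2 above them and treated replicate 3 below.

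Gnmt (ENSMUSG00000002769.8; chromosome 17, 46725664 to 46729168, minus strand), the glycine methyltransferase that uses up spare SAM, had the widest range of the members, 7.73-fold from the lowest to the highest library. It had 273, 289 and 89.4 CPM in vehicle and 44.1, 295 and 38.2 CPM in GSK3326595. The 3 highest libraries, 2 vehicle and 1 treated, lay close together and the other 3 well below them. The log2 difference was -0.79 ± 0.87 (SE; 95% interval -2.86 to 1.29; edgeR adjusted p = 0.832). It was -2.35 without treated replicate 2 (unadjusted p = 0.00531, edgeR adjusted p = 0.459), -0.39 without treated replicate 1 and -0.34 without treated replicate 3, so its size depended on which treated library was left out.

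Ahcy (ENSMUSG00000027597.15; chromosome 2, 155059310 to 155074497, minus strand), which hydrolyses S-adenosylhomocysteine, had 229, 214 and 175 CPM in vehicle and 89.9, 321 and 155 CPM in GSK3326595. The vehicle libraries lay inside the range of the treated ones. GSK3326595 minus vehicle gave a log2 difference of -0.13 ± 0.44 (SE; 95% interval -1.18 to 0.93; edgeR adjusted p = 0.963). Its sign turned to 0.21 without treated replicate 1 and to 0.01 without treated replicate 3.

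The 4 polyamine genes were all highest in GSK3326595 replicate 3, the library where Mat1a and Gnmt were lowest. Odc1 (ENSMUSG00000011179.7; chromosome 12, 17544794 to 17551505, plus strand), ornithine decarboxylase, had 247, 184 and 270 CPM in vehicle and 189, 311 and 461 CPM in GSK3326595. Treated replicates 2 and 3 were above all vehicle libraries, and treated replicate 1 was among them. Vehicle averaged 233 ± 44.6 CPM and the treated group 320.4 ± 136 CPM (SD over 3 libraries in each). The estimated log2 difference was 0.46 ± 0.34 (SE; 95% interval -0.36 to 1.27; edgeR adjusted p = 0.727).

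Srm (ENSMUSG00000006442.10; chromosome 4, 148591503 to 148594993, plus strand), spermidine synthase, had 120, 103 and 129 CPM in vehicle and 97.2, 144 and 189 CPM in GSK3326595. As for Odc1, treated replicates 2 and 3 were the highest libraries, and here treated replicate 1 was the lowest. The log2 difference was 0.29 ± 0.26 (SE; 95% interval -0.34 to 0.92; edgeR adjusted p = 0.778).

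Amd1 (ENSMUSG00000075232.4; chromosome 10, 40287458 to 40302186, minus strand), SAM decarboxylase, had 166, 126 and 175 CPM in vehicle and 90.8, 147 and 239 CPM in GSK3326595. Treated libraries were both the highest and the lowest, with a log2 difference of 0.03 ± 0.36 (SE; 95% interval -0.82 to 0.88; edgeR adjusted p = 0.989). Amd2, a close copy elsewhere on chromosome 10, holds 73.2% of the 100-base windows of the Amd1 transcript, so the division of reads between both rows is uncertain. Amd2 was estimated at 6.58 to 12.2 CPM, and with both rows summed the difference was 0.01. For Amd1 alone it was -0.37 without treated replicate 3 and 0.31 without treated replicate 1.

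Sms (ENSMUSG00000071708.11; chromosome X, 157443855 to 157492287, minus strand), spermine synthase, whose upstream window held the E-box, had 38.9, 28.6 and 45.1 CPM in vehicle. In GSK3326595 it had 43.9, 38.3 and 69.1 CPM. Treated replicate 3 alone lay above the vehicle range. GSK3326595 minus vehicle gave a log2 difference of 0.43 ± 0.29 (SE; 95% interval -0.25 to 1.11; edgeR adjusted p = 0.688). It was 0.15 without treated replicate 3, 0.26 without vehicle replicate 2 and 0.65 without treated replicate 2.

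Mtap (ENSMUSG00000062937.7; chromosome 4, 89137122 to 89181081, plus strand), the MTA phosphorylase, was expressed in every library, at 47.4, 34.6 and 61.0 CPM in vehicle and 34.97, 87.9 and 82.2 CPM in GSK3326595. Treated replicates 2 and 3 were above the vehicle libraries, and treated replicate 1 was close to the lowest of them. Vehicle averaged 47.6 ± 13.2 CPM and the treated group 68.4 ± 29.0 CPM (SD over 3 libraries in each). The estimated log2 difference was 0.52 ± 0.38 (SE; 95% interval -0.40 to 1.44; edgeR adjusted p = 0.721).

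Treated replicate 1 thus separated from replicates 2 and 3 in Odc1, Srm and Mtap. Without it these 3 members had unadjusted p values of 0.0376, 0.0492 and 0.0207, with log2 differences of 0.73, 0.50 and 0.84, and no adjusted p under 0.05 (edgeR adjusted p = 0.466, 0.470 and 0.456). In that fit 886 genes were higher and 961 lower at an unadjusted p under 0.05, against 927 and 648 with all 6 libraries. Leaving out treated replicate 3 had the opposite effect, with log2 differences of 0.12 for Odc1, 0.06 for Srm and 0.38 for Mtap. Prmt5 had the same order in the treated group as Odc1 and Srm, with replicate 1 lowest and replicate 3 highest. Amd1, Mettl16, Eif5a and Dohh were among other genes with that order, and its share over all genes was not counted. These are values of single libraries, and leaving one out was done for each of the 6 in turn.

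**Figure D3:**
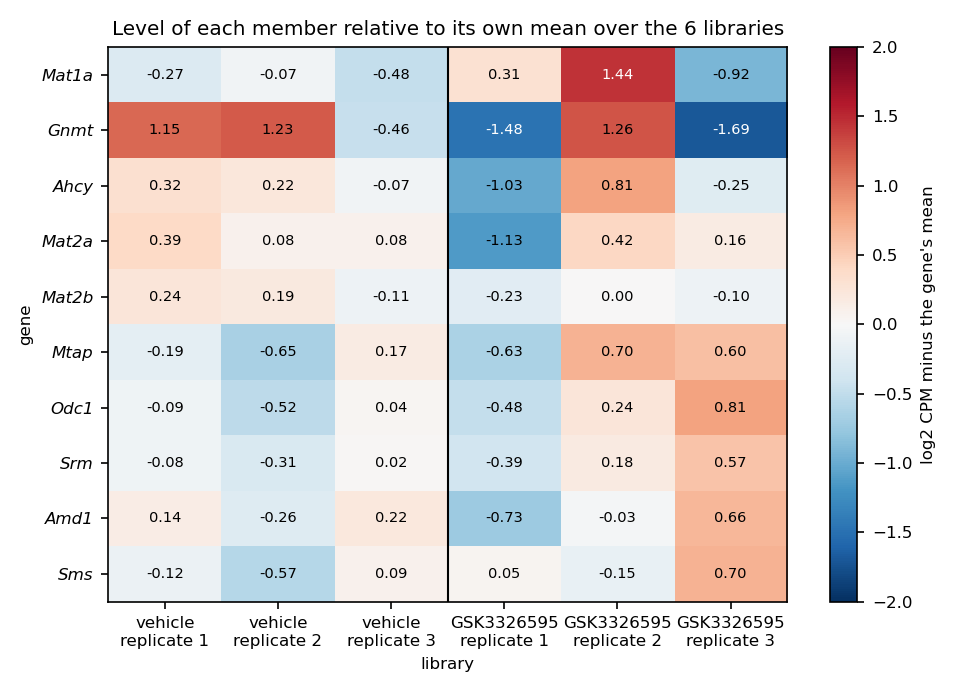
Log2 CPM of each member minus its own mean over the 6 libraries (red above, blue below, columns by library, rows by gene). The 4 polyamine genes are highest in GSK3326595 replicate 3 (0.57 to 0.81), where Gnmt (-1.69) and Mat1a (-0.92) are lowest. The share of all genes with either extreme was not counted.

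**Figure D4:**
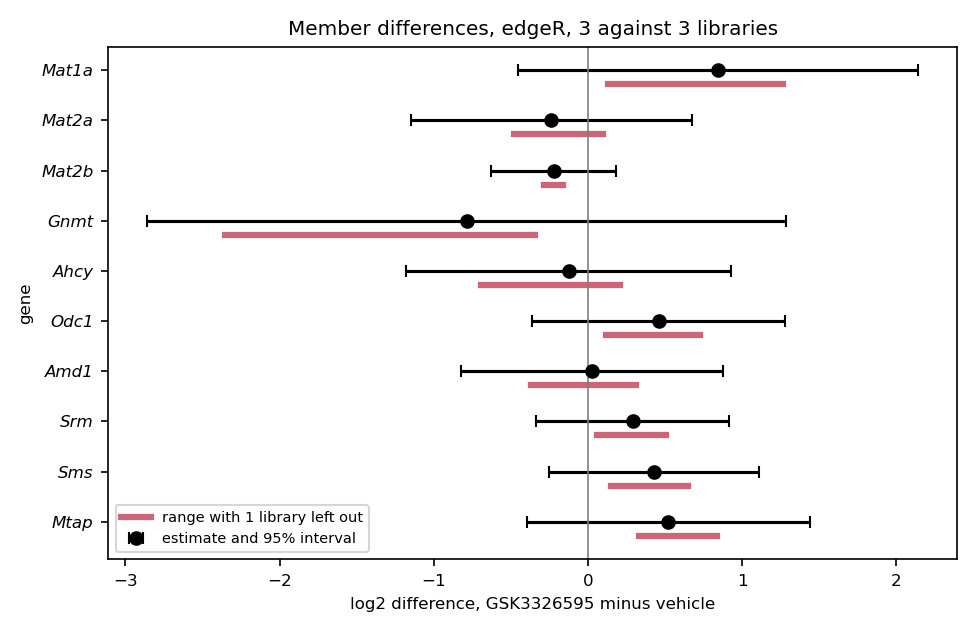
Log2 difference of each member, GSK3326595 minus vehicle, with its 95% interval (black; edgeR, 3 against 3 libraries) and the range of estimates when each library is left out in turn (red). Every interval includes 0, and the red range includes 0 for Mat2a, Ahcy and Amd1.

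Levels were compared between genes per kilobase of annotated exon, as CPM per kb. The medians over the 6 libraries were 157 for Mat1a, 150 for Gnmt, 77.8 for Srm, 75.9 for Odc1, 69.3 for Ahcy, 44.3 for Amd1, 37.1 for Mat2a, 16.8 for Mtap, 7.55 for Mat2b and 6.89 for Sms. Of neighbours in this order, Mat2a exceeded Mtap and Mtap exceeded Mat2b in 6 of 6 libraries. The other neighbours changed places in 1 or more libraries: Mat1a exceeded Gnmt in 4 of 6, and Gnmt exceeded Srm, Odc1 exceeded Ahcy and Mat2b exceeded Sms in 3 of 6 each. Gnmt was at 36.6 and 31.7 CPM per kb in treated replicates 1 and 3, below Srm and Odc1 there, so the order among the upper genes is one of medians and not of every library. With the longest coding transcript as the length, Gnmt led Mat1a (175 and 157), Odc1 led Srm (117 and 93.0), and Mat2a and Amd1 were level (49.1 and 49.0).

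Estimated reads were not whole numbers in any of the 6 libraries for Mat2a, Ahcy, Odc1, Amd1 and Sms, so part of their reads was divided with other rows. They were whole in every library for Mat1a, Mat2b, Gnmt, Srm and Mtap.

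The wider pathway, 46 genes in 6 lists, was all measured, and 0 of 46 passed the adjusted test by edgeR or DESeq2. At an unadjusted p under 0.05, 2 were higher (4.35%, beside 5.45% of all genes) and 2 lower (4.35%, beside 3.81%). Groups did not overlap in 4 higher (8.70%, beside 6.72%) and 2 lower (4.35%, beside 7.66%). Shares this close to those of all genes are no result about the pathway. The median log2 difference was 0.07.

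In the methionine cycle and transsulfuration list 1 of 11 genes was higher and 1 lower at an unadjusted p under 0.05. Cbs, which commits homocysteine to cysteine synthesis, had 206, 208 and 117 CPM in vehicle and 115, 115 and 75.2 CPM in GSK3326595 (-0.80 ± 0.29 SE, edgeR adjusted p = 0.522). Its groups did not overlap, although vehicle replicate 3 lay just above 2 treated libraries. Ahcyl2, a relative of Ahcy, differed by 0.51 ± 0.21 without overlap (edgeR adjusted p = 0.533), and Mettl16 is given above beside Mat2a.

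Among 9 SAM-consuming enzymes and enzymes of sarcosine removal, 1 was higher and 1 lower at that threshold. As3mt, which methylates arsenic with SAM, had 72.2, 63.2 and 53.9 CPM in vehicle and 44.6, 37.5 and 40.9 CPM in GSK3326595. All vehicle libraries lay above all treated ones (-0.62 ± 0.17 SE, unadjusted p = 0.00964, edgeR adjusted p = 0.485), and the difference stayed between -0.69 and -0.51 without any 1 library. Hnmt, histamine methyltransferase, differed by 1.85 ± 0.77 (edgeR adjusted p = 0.539) and Nnmt, nicotinamide methyltransferase, by 1.95 ± 1.03 (edgeR adjusted p = 0.611). Both rested on GSK3326595 replicate 2, which had 6.51 CPM of Hnmt and 3.69 CPM of Nnmt against at most 1.35 and 0.418 CPM elsewhere.

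Of 6 genes after Mtap in methionine salvage, 0 had an unadjusted p under 0.05. Adi1, the dioxygenase of that pathway, had 35.7, 33.5 and 37.1 CPM in vehicle and 47.1, 54.0 and 39.6 CPM in GSK3326595, without overlap (0.40 ± 0.17 SE, edgeR adjusted p = 0.548). Got1, a transaminase, differed by -0.48 ± 0.27 and the isomerase Mri1 by -0.41 ± 0.26 (edgeR adjusted p = 0.634 and 0.671), and both overlapped.

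The list of polyamine catabolism, antizymes and transport had 0 of 11 genes at an unadjusted p under 0.05 and a median log2 difference of 0.07. Sat1, the acetyltransferase that starts polyamine breakdown, had 54.9, 79.9 and 51.9 CPM in vehicle and 150, 66.7 and 65.3 CPM in GSK3326595 (0.59 ± 0.38 SE, edgeR adjusted p = 0.670). It was highest in treated replicate 1, where Amd1 and Srm were lowest. Summed macrophage markers were also highest there (1700 CPM, beside 491 to 782 CPM elsewhere), and their part in these values was not tested. The transporter Atp13a2 (0.52 ± 0.32) and the spermine oxidase Smox (0.78 ± 0.61) were also highest in that library, at 82.5 and 12.7 CPM (edgeR adjusted p = 0.659 and 0.733). Without it, the differences of Sat1, Atp13a2 and Smox were 0.08, 0.12 and 0.04, and without treated replicate 3 they were 0.82, 0.78 and 1.02.

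Ornithine supply had 0 of 5 genes at an unadjusted p under 0.05. Oat, ornithine aminotransferase, had 110, 115 and 102 CPM in vehicle and 50.0, 128 and 50.3 CPM in GSK3326595 (-0.51 ± 0.39 SE, edgeR adjusted p = 0.729). As for Gnmt, treated replicate 2 was the exception, and the difference was -1.07 without it (unadjusted p = 0.000631, edgeR adjusted p = 0.459). It was -0.28 without treated replicate 1 and -0.27 without treated replicate 3. The arginase gene Arg2 was at 0.217 to 1.56 CPM (-0.89 ± 0.73, edgeR adjusted p = 0.749), and Agmat, which makes putrescine from agmatine, differed by 0.23 ± 0.29 (edgeR adjusted p = 0.864).

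The hypusine pathway, which uses spermidine to modify the translation factor EIF5A, had 0 of 4 genes at an unadjusted p under 0.05. Eif5a2 had 1.24, 2.31 and 1.64 CPM in vehicle and 2.87, 2.39 and 3.46 CPM in GSK3326595, without overlap (0.75 ± 0.34 SE, edgeR adjusted p = 0.556). Eif5a, at 439 to 674 CPM, differed by -0.04 ± 0.24 and the hydroxylase Dohh by -0.04 ± 0.25 (edgeR adjusted p = 0.978 and 0.976).

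**Figure D5:**
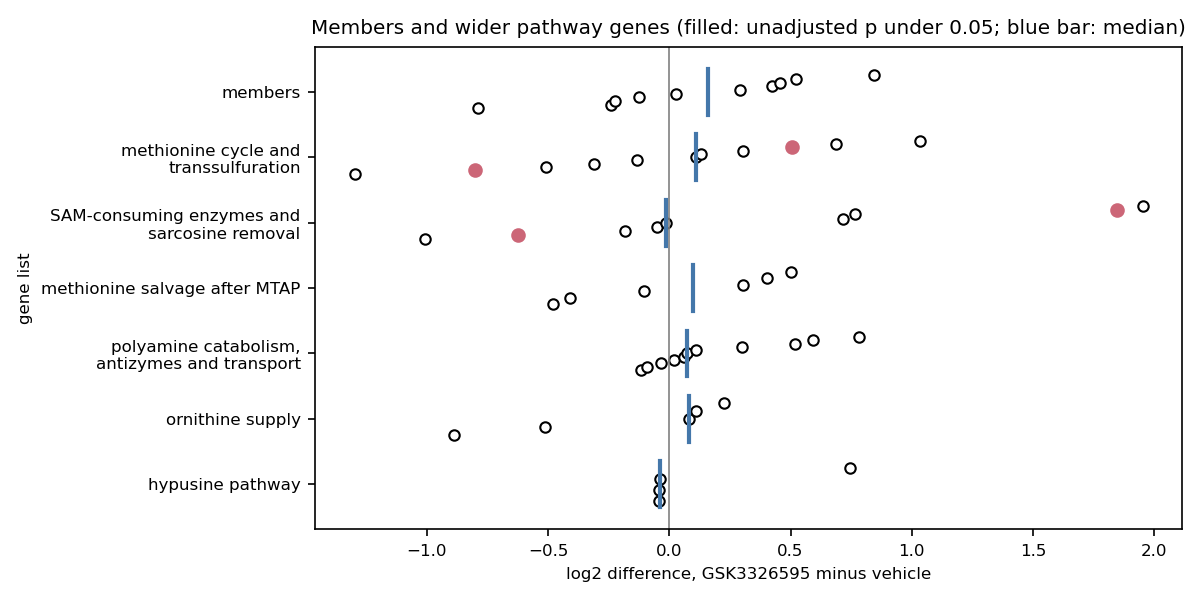
Log2 difference, GSK3326595 minus vehicle, of the 10 members and of the 46 wider pathway genes by list (1 point a gene; filled red where the unadjusted edgeR p is under 0.05; blue bar, list median). The medians lie between -0.04 and 0.16, and 4 wider genes and 0 members are filled.

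Genes whose levels followed those of Mat1a, the member of smallest p, were sought by the root-mean-square difference of mean-centred log2 CPM over the 6 libraries. Among the nearest of all tested genes were Cd1d1 (0.09), Lonp2 (0.13), Serpina1c (0.15) and Slc25a25 (0.15). These 4 genes were highest in GSK3326595 replicate 2 and lowest in replicate 3 of that group, as Mat1a was. That likeness follows from the way they were chosen.

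Markers of other cells moved with the groups and with single libraries, and their part in the members' values was not tested. Summed T cell markers (10 genes) were at 4.12 to 7.55 CPM in vehicle and 12.3 to 31.5 CPM in GSK3326595. Dendritic markers (6 genes) were at 7.39 to 11.3 and 15.6 to 33.3 CPM, and stellate markers (8 genes) at 130 to 518 and 586 to 779 CPM. These ranges did not overlap. Cd4 was the largest part of the T cell sum in every library, at 2.80 to 5.34 CPM in vehicle and 7.83 to 18.6 CPM in GSK3326595. By edgeR's unadjusted p under 0.05, 7 of 7, 4 of 6 and 2 of 8 tested markers were higher, beside 5.45% of all genes. Of the tested markers, 0 passed the adjusted test. Some T cell and dendritic markers, Xcr1 among them, passed the filter on low counts only through the treated libraries. The T cell and dendritic counts were therefore partly fixed in advance and are no support for a difference. The vehicle libraries had the T cell gene Cd3d at 0 to 0.14 CPM and the dendritic gene Xcr1 at 0 to 0.15 CPM.

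Hepatocyte markers (7 of 8 found by symbol) summed to 13115 to 33827 CPM in vehicle and 7286 to 26068 CPM in GSK3326595. Among these 7 markers, 6 had lower mean levels in GSK3326595 and 0 had an unadjusted p under 0.05. They were lowest in GSK3326595 replicate 3, where Mat1a and Gnmt were also lowest. In vehicle the sum had the same order as both genes, with replicate 2 highest and replicate 3 lowest (27836, 33827 and 13115 CPM in replicates 1 to 3). In the treated group the sum was 26068 CPM in replicate 1, where Gnmt was second lowest of the 6 libraries. It was 21078 CPM in treated replicate 2, where Mat1a and Gnmt were highest. Genes of male-biased liver expression (8 genes) summed to 700 CPM in GSK3326595 replicate 2, the library with the highest Mat1a. They summed to between 26.1 and 103 CPM in the other 5 libraries. Of 5 tested, 3 were higher at an unadjusted p under 0.05, beside 5.45% of all genes, but the groups overlapped in all 5. Female-biased genes (8 genes) were at 80.9, 80.8 and 27.4 CPM in vehicle and 30.3, 82.4 and 15.4 CPM in GSK3326595, high in the same 3 libraries as Gnmt. Of 6 tested, 1 was lower at that threshold, beside 3.81% of all genes. Most of the sum was Cux2 in vehicle (24.8 to 72.0 CPM) and Sult2a1 in GSK3326595 replicate 2 (61.9 CPM), so it did not follow a single gene. Macrophage (491 to 1700 CPM), endothelial (79.2 to 194), biliary (11.1 to 63.3) and erythroid (202 to 480) sums overlapped between the groups, with 0 markers at an unadjusted p under 0.05.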

How the data were processed

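For 6 libraries of total RNA, the authors deposited expected counts: estimated reads for each gene, not scaled to library size. Per the submitters' processing notes, cutadapt, STAR, Picard and RSEM were used with build mm10, with no versions given there. Which annotation release was counted is not stated there, and 12.3% of values were not whole (tolerance 0). Positions and exon lengths came from GENCODE M21 of the same assembly, which may not be the release counted, and promoters from RefSeq.

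Expected counts were rounded, filtered with filterByExpr (minimum count 10), scaled by TMM and tested two-sided and unpaired in edgeR (4.0.16, R 4.3.3) by quasi-likelihood, with Benjamini-Hochberg adjustment over 17012 genes and a threshold of 0.05. SE is the absolute log2 difference over the square root of F, and intervals use the test's degrees of freedom. Log2 CPM used a prior count of 2. Exon length is the union of all annotated exons, retained introns included. The other tools were limma-voom (limma 3.58.1) and DESeq2 1.42.0, and all 3 were tested on simulated counts.

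Members and lists were chosen with earlier results of these data known. Named were all members, Prmt5, up to 3 genes of smallest p per wider list, and the 5 genes most like the member of smallest p, of which 1 is not reported here. Alb, Afp and Amd2 were named in addition. Cd3d, Cd4, Xcr1, Cux2 and Sult2a1 were also named, after their values were seen. Alternatives were 2 other scalings, 2 filters, both other tools, a replicate block, removal of 220 mitochondrial and rRNA genes, each library left out, and Amd1 summed with Amd2.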

Additional observations from a re-analysis of the deposited data

How the results depend on the processing

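Over 141 refits of single members, the adjusted p stayed above 0.05 (smallest 0.321), and 134 kept the direction. Reversals were Amd1, at -0.0688 by limma-voom and -0.0623 with the replicate block, and some left-out libraries: Amd1 ranged from -0.37 to 0.31, Mat2a from -0.48 to 0.10 and Ahcy from -0.69 to 0.21. The sum with Amd2 was added after seeing the data. Called genes stayed at 0 in every edgeR and limma-voom fit, while DESeq2 called 186 higher and 100 lower, none of them a member; the cause was not tested. The unadjusted threshold of 0.05 was passed by 927 higher and 648 lower genes; the higher count was 1547 with no filter on low counts, the lower one 430 with total counts only. Without each library they ranged from 347 to 1629 and from 241 to 961, and the count of members from 0 to 3. The wider pathway count of 2 higher was 4 with RLE size factors, 5 with total counts only, 4 with at least 1 CPM in 3 libraries, 4 by DESeq2 and 1 by limma-voom. Without each library it ranged from 0 to 6, and that of 2 lower from 0 to 6.

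With the replicate block the wider pathway had 0 higher and 4 lower, and 0 members had an unadjusted p under 0.05. Same-numbered libraries correlated at -0.07, 0.07 and 0.32 in their deviations from the group means, and 3 of 6 libraries correlated best with their own number, so the numbers were not taken as pairs. The Mat1a to Mat2a difference was 0.92 with the block and ranged from 0.43 to 1.69 without each library. Of other genes, Dohh was 0.0469 and Eif5a 0.0480 with total counts only, and 0.00966 and 0.0149 with at least 1 CPM in 3 libraries. Without each library Dohh ranged from -0.22 to 0.15, Eif5a from -0.18 to 0.14, Arg2 from -1.55 to 0.0357, Nnmt from -0.21 to 2.44 and Agmat from -0.11 to 0.42. With 3 libraries a group, the intervals are wide and hold differences in either direction for every member.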
